A study of Mus musculus with 3 samples.

Results

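The genes described here build, hold and separate the chromosomes of a dividing cell. They encode the kinetochore and the centromere under it, the spindle checkpoint, the kinases of mitosis, the anaphase-promoting complex (APC/C), cohesin and condensin. They were chosen by symbol from a list of 60 genes: every probe set to which the array annotation gives exactly 1 gene symbol on that list was taken. The annotation held 59 of the 60 symbols, with 136 probe sets, out of 18193 named genes and 45101 probe sets in all. The missing symbol, Sgol1, is an older name of Sgo1 in the mouse gene table, and the Sgo1 probe sets are given apart from the counts. RNA of undifferentiated F9 cells, a mouse embryonal carcinoma line, had been hybridised to 3 Affymetrix Mouse Genome 430 2.0 arrays, labelled replicates 1, 2 and 3. All 3 samples form the same group, with no treatment and no other cell state beside it. The cells had been kept on plates coated with 0.2% gelatin in DMEM with 10% fetal calf serum and were harvested near 80% confluence. Separate cultures are not stated behind the 3 RNA samples, so the p-values below measure the spread between these samples only, which may be technical.

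In mitosis each chromosome is attached to the spindle through its kinetochore, a layered protein assembly on the CENP-A chromatin of the centromere. Unattached kinetochores feed the spindle checkpoint, which keeps Cdc20 from activating the APC/C, a ubiquitin ligase. Once the checkpoint is satisfied, the APC/C marks securin and cyclin B for destruction, separase cuts cohesin, and the sister chromatids part, compacted by condensin. Many of these genes are known to be transcribed mainly in the G2 and M phases of proliferating cells, whereas others, such as cohesin and the APC/C core, are made more evenly through the cycle. Pluripotent stem cells and embryonal carcinoma cells are known for rapid division.

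Signals are the deposited linear intensities, and values on single arrays are given in the order replicate 1, 2, 3. Background was read on the arrays themselves, from 129 probe sets of olfactory, vomeronasal and taste receptor and hair keratin-associated protein genes. Their 95th percentile, the threshold, was 44.4, 46.0 and 43.1. A probe set was called above background where limma's moderated one-sided test of log2 signal over that threshold had a Benjamini-Hochberg adjusted p under 0.05 over all 45101 probe sets, and a gene was represented by its probe set of highest mean signal. As alternatives, the probe set was chosen by suffix (its name ending, _at before _a_at, _s_at and _x_at) or the median over a gene's probe sets was taken on each array. Brightness depends on the probes, so a distance from the threshold, in log2 units, is no amount of RNA and gives no order of expression between genes. The deposited arrays shared a trimmed mean of 250.002, and the ratio of 3′ to 5′ signal was 1.17, 1.18 and 1.24 for the beta-actin controls and 0.794, 0.81 and 0.814 for the Gapdh controls. All 5 pluripotency markers (Pou5f1, Sox2, Nanog, Zfp42, Utf1) were above background, and 0 of 5 endoderm markers were. Without a call, Gata6 (59.3, 60.2 and 53.0, limma adjusted p = 0.0501) and Sox17 (55.2, 63.3 and 90.7, limma adjusted p = 0.0724) exceeded the threshold on all 3 arrays. Of 5 fibroblast markers only Thy1 was called, at 116, 113 and 84.9, with Col1a1, Col1a2, Col3a1 and Pdgfrb not above background. Their part in the results below was not tested.

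Nearly all listed genes were above background at their brightest probe set, 58 of the 59 measured (98.3%). The exception was Aurkc, an Aurora kinase gene known from germ cells. Other choices of probe set gave fewer calls, as given below. Of all 18078 named genes tested outside the background families, 51.1% were above background. Each of the 58 also exceeded the threshold on all 3 arrays, as did 53.8% of named genes. Limma's adjusted p of the called genes lay between 0.000109 and 0.0021. Their representative probe sets lay from 1.99 log2 units over the threshold (Nsl1) to 7.13 (Cdc20), and the median of the 59 was 4.66 log2 units, against 0.72 for all named genes. The distance was at least 2 log2 units in 57 genes, at least 4 in 42 and at least 6 in 10. Because a gene with many probe sets has more chances to be called, counts without that choice were also taken. Among the 19 genes with 1 probe set 18 were called, against 36.1% of all named genes with 1 probe set. Of all 136 probe sets 107 (78.7%) were called, against 38.2% of the array. The share of the array also counts controls and probe sets without a gene symbol, so the probe sets compared are not alike. An array signal averages over cells in every phase, so the share of cells in mitosis and the RNA in each such cell cannot be told apart.

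**Figure D1:**
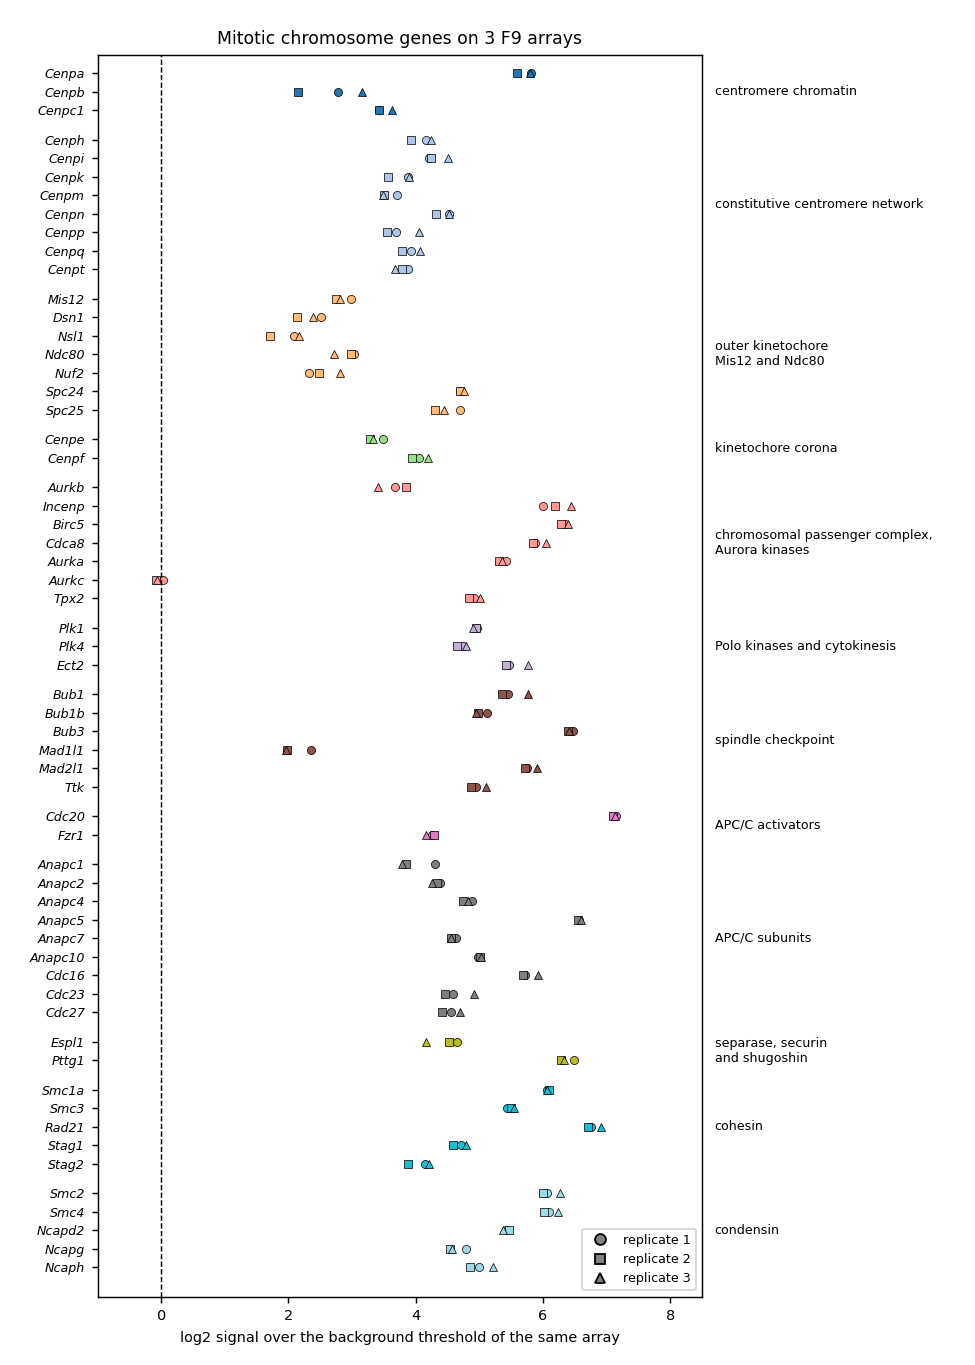
Each row is a gene and each symbol 1 array (circle replicate 1, square replicate 2, triangle replicate 3), placed by log2 signal over that array's background threshold (dashed line at 0), with genes grouped and coloured by role. Aurkc alone sits on the threshold, and the other genes lie to its right on all 3 arrays, with Cenpb the most widely spread.

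The genes of centromere chromatin were all above background, 3 of 3, with 3 of 6 probe sets called. Beside each role-group count here and below stand the 51.1% of named genes and 38.2% of array probe sets called. The groups are small and were not tested against those shares. Cenpa encodes the histone H3 variant that marks the centromere, and its signal was 2498, 2231 and 2400.1, 5.74 ± 0.12 log2 units over the threshold (limma SE, n = 3). The 3 arrays lay close together, but only 1 of its 3 probe sets was called. The others read 28.8, 16.4 and 19.9 and 9.56, 31.5 and 8.78, so the gene fell to -1.69 with the probe set chosen by suffix and to -0.76 with the median of its probe sets. Cenpb, whose protein binds a repeated DNA motif of mouse minor satellite, had 305, 204 and 383, 2.69 ± 0.25 log2 units over the threshold. Its arrays differed more than those of any other gene of the list above background: replicate 3 was 1.88 times replicate 2. A further Cenpb probe set read 19.8, 22.3 and 6.43, not above background, and the median of both was at 0.52 log2 units (limma adjusted p = 0.0512). Cenpc1, which links CENP-A nucleosomes to the outer kinetochore, had 477, 494 and 535 on its only probe set.

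The constitutive centromere-associated network, the layer that stays on CENP-A chromatin through the cycle, was called in 8 of 8 genes, and 10 of its 13 probe sets were above background. The distances ran from 3.56 to 4.46 log2 units. Cenph had 796, 703 and 818 and Cenpi 823, 874 and 981; both proteins belong to the CENP-H/I/K/M subcomplex. For Cenph replicate 2 was low and the others near each other, whereas for Cenpi replicate 3 was high. Cenpk, of the same subcomplex, read 651, 546 and 641 on the called probe set and 38.3, 38.6 and 16 and 29.8, 16.3 and 27.2 on those not above background. Its median over probe sets, taken on each array, lay at -0.38 log2 units. Cenpm averaged 527 ± 48.6 (SD, n = 3 arrays, as for all means here). Cenpn, which recognises the CENP-A nucleosome, was called on both probe sets, with 1021, 920.4 and 997 on the representative. Cenpp, of the CENP-O/P/Q/U/R subcomplex, had 572, 539 and 719, and the last of its 3 probe sets read 16.9, 24.5 and 26.5, not above background. Cenpq averaged 678 ± 40.8. Cenpt, a histone-fold protein that can recruit the Ndc80 complex, averaged 615 ± 53.4.

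The outer kinetochore, where microtubules attach, was called in 7 of 7 genes and on 7 of 9 probe sets, at a median of 2.85 log2 units over the threshold. Of the Mis12 complex, which joins the inner and outer layers, Mis12 had 351, 309 and 304 and Dsn1 253, 203 and 224. Replicate 1 was highest for both. Nsl1, of the same complex, read 188, 151 and 194 on one probe set, 1.99 log2 units over the threshold, and 52.5, 38.0 and 25.2 on the other, which was not above background. Ndc80 and Nuf2 form the microtubule-binding end of the Ndc80 complex. Ndc80 had 363, 366 and 284 and Nuf2 223, 257 and 301, so replicate 3 was the lowest array for the first and the highest for the second. Spc24 and Spc25 form the other end of the complex. Spc24 was nearly level at 1159, 1194 and 1165, and Spc25 had 1158, 912 and 944. A further Spc25 probe set stayed at 48.5, 53.6 and 43.6; chosen by suffix it lay at 0.12 log2 units and the call was lost (limma adjusted p = 0.435). In the fibrous corona, both genes were called, on 3 of 5 probe sets. Cenpe, a kinesin that carries chromosomes to the spindle equator, had 499, 447 and 433, and a further probe set not above background read 42.2, 37.0 and 46.4. Cenpf, a large coiled-coil protein, had 734, 710.2 and 791, with a weaker called probe set at 101, 93.8 and 103 and one not called at 40.6, 43.5 and 57.1.

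Aurora B and its partners form the chromosomal passenger complex, which corrects faulty attachments, and all its genes were above background. With Aurka, Aurkc and Tpx2 counted in, 6 of 7 genes and 13 of 18 probe sets were called. Aurkb, the kinase, had 569, 664 and 459.8, with replicate 2 high and replicate 3 low (1.44 times). Both of its probe sets are of kinds that the array maker marks as able to match several transcripts, so without those kinds Aurkb was not measured. The second one was steadier at 544, 579 and 525. Incenp, the scaffold, had 2850.3, 3349 and 3751 on a probe set that may cross-hybridise (_x_at), and 880.2, 817 and 855 and 324, 280.3 and 273 on others that were called too. Its remaining probe sets, 46.4, 29.4 and 58.7 and 1.92, 22.5 and 5.05, were not above background. Birc5 (survivin) was the most even gene of the list above background, at 3609.8, 3591 and 3638, and Cdca8 (borealin) had 2612, 2640.3 and 2851, with all 3 probe sets called. Aurka, the Aurora kinase of centrosomes and spindle poles, had 1911, 1827 and 1765, 5.36 ± 0.11 log2 units over the threshold, while a second probe set read 4.28, 8.76 and 7.62. Tpx2, which activates Aurora A on the spindle, had 1346, 1321 and 1389.7; of its 4 probe sets 3 were called and the last read 55.0, 60.9 and 54.2.

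Aurkc stood apart from its relatives, with 45.1, 43.7 and 41.3 on its only probe set. The 3 arrays lay on both sides of their thresholds, at -0.04 ± 0.11 log2 units, so the gene was not above background. Such a reading leaves its RNA undetected at this threshold and is no proof of absence. It lay at 0.30 log2 units with the 90th percentile as threshold, again without a call (limma adjusted p = 0.157), and was called with the lower threshold of bacterial control probe sets (0.94 log2 units, adjusted p = 0.0167). Other genes known for their role in meiosis were counted beside it. Of 4 measured meiotic forms of cohesin and kinetochore genes 1 was called, Stag3, a cohesin subunit of meiotic chromosomes, at 179, 138 and 171 (1.86 log2 units, limma adjusted p = 0.00142). Smc1b read 2.18, 3.54 and 2.88, Rec8 46.8, 42.0 and 37.1 and Meikin 27.6, 5.12 and 4.22. Each of these meiotic forms has 1 probe set on the array, and with 36.1% of named genes of 1 probe set called, 1 of 4 says nothing particular about them. For Meikin replicate 1 was well above the other arrays, though below the threshold.

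The Polo kinases and the cytokinesis factor Ect2 were called in 3 of 3 genes and on all 5 of their probe sets. Plk1, the kinase that drives mitotic entry and spindle assembly, had 1382, 1419 and 1293. Plk4, which starts centriole duplication, had 1194, 1155 and 1199, and its other probe sets read 631, 485 and 576 and 210.2, 228 and 264. Ect2, an exchange factor for RhoA at the cleavage furrow, had 1975, 1981 and 2347, with replicate 3 above the others.

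The spindle checkpoint was called in 6 of 6 genes and on 9 of its 15 probe sets. Bub1, a kinase that brings shugoshin to centromeres by marking histone H2A, had 1948, 1886 and 2334 and, on a second called probe set, 103, 82.8 and 99.8. Bub1b (BubR1), part of the complex that blocks Cdc20, had 1539, 1451 and 1334, with 1184, 1139 and 1119.9 on another called probe set and 31.7, 32.7 and 67.6 on one that was not. Bub3, their shared binding partner, had 3963, 3860.1 and 3651 and a further called value of 644, 529.7 and 483. Its other 3 probe sets had mean signals between 24.7 and 36.0, and the median over the 5, taken on each array, lay at -0.18 log2 units. Mad1l1 (Mad1), the kinetochore anchor of Mad2, had 228, 181 and 167, and replicate 1 was the highest array by 1.36 times over replicate 3. Its second probe set read 3.23, 3.90 and 2.20, so that Mad1l1 fell to -3.88 by suffix and -0.89 by the median. Mad2l1 (Mad2), which binds Cdc20 directly, had 2395, 2425 and 2585 on its only probe set. Ttk (Mps1), the kinase at the head of the checkpoint, had 1375, 1352 and 1480.0, and a second probe set, 24.7, 59.2 and 76.9, differed widely between arrays and was not above background.

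The activators of the APC/C, Cdc20 for anaphase and Fzr1 (Cdh1) for mitotic exit and G1, were both called on every probe set. Cdc20 had 6317, 6294 and 6043, 7.13 ± 0.11 log2 units over the threshold, on a probe set that may cross-hybridise (_x_at). Its _at probe set read 4333, 4309.6 and 3984 (6.56 log2 units), and a further _x_at one 478, 460.0 and 472. Fzr1 had 845, 903 and 774. The enzyme's core was called in 9 of 9 genes and on 23 of 27 probe sets. Anapc1, the large scaffold, had 874, 662 and 592, with replicate 1 high by 1.48 times over replicate 3. Its probe sets at 363, 277 and 257 and 184, 150.3 and 166 also had replicate 1 highest, and that at 439, 416 and 422 was nearly even. The last Anapc1 probe set, 31.3, 8.19 and 2.94, was not above background. Anapc2, the cullin at the catalytic centre, had 922, 931 and 824. Anapc4 averaged 1256 ± 50.2. Anapc5, with 6 probe sets that were all called, averaged 4229.7 ± 59.8 on a representative of the _x_at kind. Both proteins belong to the platform of the complex.

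Anapc10, which helps to receive substrates, averaged 1431 ± 42.6. The subunits with tetratricopeptide repeats were Anapc7, Cdc16, Cdc23 and Cdc27. Anapc7 had 1106, 1086 and 1014, and a second probe set read 52.0, 52.1 and 25.1. Cdc16 had 2344, 2385 and 2626 on the called probe set and 10.4, 68.5 and 59.7 on the other, which is the one preferred by suffix (-0.35 log2 units). Cdc23 had 1066, 1018 and 1303, with replicate 3 high, and the probe set preferred by suffix read 18.1, 22.2 and 18.6 (-1.19 log2 units). Cdc27 was called on all 4 of its probe sets, with 1046, 986 and 1122 on the representative.

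Separase and securin, the protease that opens cohesin and its inhibitor, were both above background. Espl1 (separase) had 1120.0, 1054 and 771, so replicate 3 lay under both others, by 1.45 times against replicate 1. Pttg1 (securin) had 3988, 3606 and 3459 and a second called probe set at 1318, 1085 and 1119; the last, 41.8, 76.0 and 48.5, was not above background, and as the choice by suffix it gave 0.27 log2 units (limma adjusted p = 0.355). Shugoshin, which guards centromeric cohesin, was annotated as Sgo1 in place of Sgol1 and stayed outside the counts. Its probe sets read 860.0, 855 and 994, and 505, 503 and 547, both above background (limma adjusted p = 0.000141 and 0.000163).

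Cohesin was called in 5 of 5 genes and on 15 of 16 probe sets. Smc1a had 2978, 3159 and 2887 and Smc3 1915, 2083 and 2014; their proteins are the ATPase arms of the ring, and for both the 3 arrays lay within 1.09 times. Rad21, the kleisin cut by separase, had 4812, 4805 and 5178, again nearly even. A further Rad21 probe set of the _x_at kind differed more, at 1245, 1543 and 1747. Stag1 and Stag2 encode alternative subunits of the ring. Stag1 had 1169, 1103 and 1198, was called on 5 of 6 probe sets, and read 49.6, 52.3 and 53.2 on the last. Stag2 had 785, 676 and 794, with both probe sets called and replicate 2 lowest.

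Condensin was called in 5 of 5 genes and on 12 of 14 probe sets. Smc2, an ATPase shared by condensins I and II, had 2962, 2949 and 3318; 3 further probe sets were called at lower signals and the last, 30.0, 10.9 and 32.3, was not. Smc4, its partner, had 3039, 2982 and 3247 and was called on all 3 probe sets. Both had replicate 3 highest. The condensin I subunits were all called. Ncapd2 had 1901, 2029 and 1781, with 49.5, 66.0 and 38.6 on a probe set not above background. Ncapg averaged 1109.8 ± 108 and Ncaph, the kleisin, 1451 ± 135 on an _x_at probe set. The condensin II genes Ncapd3, Ncapg2 and Ncaph2, which are not on the list, were called too, 3 of 3, with Ncapd3 at 926, 866 and 960.5.

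Other genes of the same pathways were listed by function, with earlier results of these data known. The 6 such groups held 53 measured genes, and all 53 were above background, against 51.1% of all named genes, at a median of 4.18 log2 units. As in the list itself, many calls rest on the brightest of several probe sets. Of their 135 probe sets 93 were called (68.9%, against 38.2% of the array, probe sets without a gene symbol included). Among the 37 genes with several, 25 had them on both sides of the call. All 16 with 1 probe set were called, against 36.1% of such named genes. They comprised 18 of 18 kinetochore and centromere genes, such as Knl1, the checkpoint platform, at 215, 158 and 177. All 8 checkpoint and kinase genes were called, among them Trip13, an ATPase that remodels Mad2, at 2296, 2439 and 2562. So were 8 of 8 further APC/C genes, among them the catalytic subunit Anapc11 at 1479, 1607 and 1339, and 6 of 6 cytokinesis genes, among them Prc1, a microtubule bundler, at 897, 973 and 801. The 10 cohesin regulators were called, including the loader Nipbl at 479.7, 462 and 468. The Smc3 deacetylase gene Hdac8 was called at 86.8, 105 and 63.0 (0.90 log2 units, limma adjusted p = 0.0181).

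Leaving out any 1 array kept 58 genes above background, whereas the choice of probe set changed the calls. On both sides of the call lay the probe sets of 23 of the 40 genes that had more than 1 (57.5%), against 39.9% of all such named genes, and 17 genes had all of them called. The 29 probe sets that were not called had mean signals from 3.11 to 56.7. By name ending, 64 of 90 _at probe sets of the list were called, against 32.4% of that kind on the array. The shares by name ending on the array also count probe sets without a gene symbol. All 20 _a_at probe sets, which match several transcripts of 1 gene, were called, against 64.8%. Of the _s_at kind 13 of 15 were called, against 64.1%, and of the _x_at kind 10 of 11, against 52.8%. The genes called thus numbered 52 with the probe set chosen by suffix and 53 with the median over a gene's probe sets. The genes without a call in either case, beside Aurkc, are those given with such a value above: Cenpa, Spc25, Mad1l1, Cdc16, Cdc23 and Pttg1 by suffix, and Cenpa, Cenpb, Cenpk, Bub3 and Mad1l1 by the median.

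**Figure D2:**
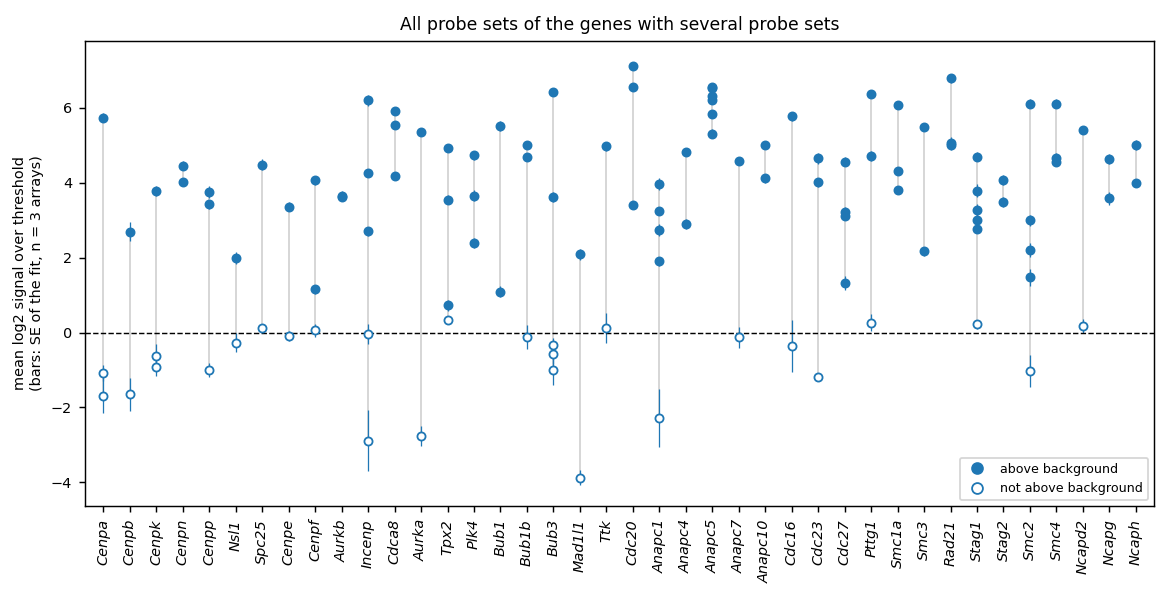
For each gene with several probe sets (horizontal axis), every probe set is a point at its mean log2 signal over the threshold, with the limma SE as a bar (n = 3 arrays), filled where above background and open where not. In 23 of the 40 genes filled and open points stand in the same column, as in Mad1l1, whose probe sets lie at 2.10 and -3.88.

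Between the 3 arrays the signals of these genes differed little. The range from the lowest to the highest array had a median of 0.19 log2 units over the 58 genes above background, against 0.23 for all named genes above background. Among the 2144 such genes whose mean signal fell within the interquartile range of the list, it was 0.18. The range was under 0.5 log2 units in 54 of the 58 and reached 1 in 0. The widest were Cenpb (0.91), Anapc1 (0.56), Espl1 (0.54), Aurkb (0.53) and Mad1l1 (0.45), and the narrowest Birc5 (0.019), Anapc5 (0.036) and Spc24 (0.043). Leaving out an array narrows a range by construction, and the median was 0.13 without replicate 1, 0.13 without replicate 2 and 0.085 without replicate 3.

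As a group the genes differed little in level between arrays. Their median deviation from the gene mean was 0.015, -0.034 and 0.013 log2 units on replicates 1, 2 and 3, against 0.0060, 0.0052 and -0.010 for all named genes above background. Replicate 3 was the highest array for 27 genes (46.6%, against 34.3% of named genes above background), replicate 1 for 20 (34.5%, against 32.3%) and replicate 2 for 11 (19%, against 33.4%). Replicate 2 was the lowest array for 24 genes, replicate 3 for 23 and replicate 1 for 11. For the lowest array the shares over all named genes were not computed, so these counts have nothing beside them. By role, replicate 3 was lowest in the separase and securin pair, at a median deviation of -0.21, whereas in the condensin genes it was 0.073 and in the centromere network 0.078. The arrays belong to the same group, so no such difference was tested, and the signs on replicates 1 and 3 turned under some alternatives. With replicate 2 left out, the deviations on replicates 1 and 3 mirror each other by construction, so both signs cannot hold. Under quantile normalization and with log2(signal + 16) the signs on all 3 arrays were kept.

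**Figure D3:**
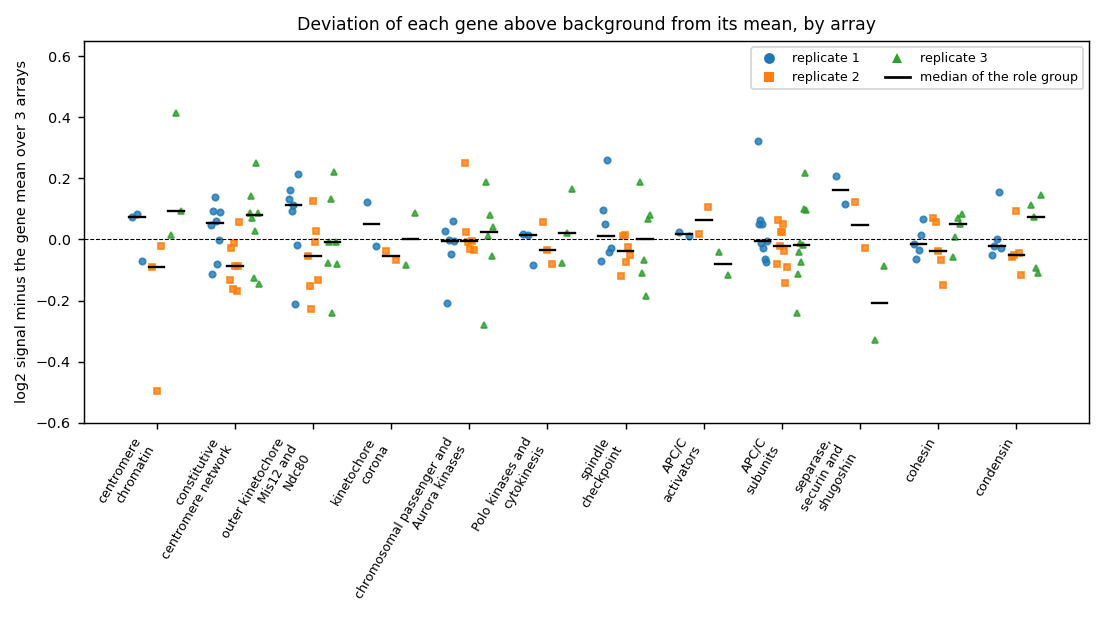
Points give the log2 signal of each gene above background minus its mean over the 3 arrays, by role group (horizontal axis) and array (colour and symbol), and black lines give the median of a role group on an array. Cenpb spans the widest range, 0.91 log2 units between replicates 2 and 3, and Birc5 the narrowest, 0.019.

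A sequence feature that the choice of genes did not use was read from their promoters. Many genes of G2 and M are known to carry a cell cycle genes homology region (CHR), bound by the DREAM and B-Myb-MuvB complexes, near a CCAAT box, bound by NF-Y. Promoter sequences came from RefSeq (build GRCm38.p6), 250 bases before to 50 after a transcription start, with 56 entries for 50 of the 59 genes and 32851 entries in all. The letters TTTGAA or TTCGAA (CHR forms) and CCAAT were searched on both strands. A CHR form lay in 22 of the 56 entries (39.3%), against 13.5% of those of other genes above background and 19.2% of all entries. Within 50 bases on either side of the start the shares were 32.1%, against 3.48% and 5.31%. CCAAT lay in 66.1% of the entries, against 38.0% and 37.4%. Both together lay in 20 entries of 18 genes over the whole entry (35.7%), against 5.52% and 7.52%. Within the narrow window, which was chosen after values were seen, they were found in 12 entries of 11 genes (21.4%), against 0.866% and 0.886%. The 11 genes were Aurka, Bub1, Bub3, Cdc20, Cdca8, Cenpn, Ect2, Espl1, Plk1, Spc25 and Ttk. E2F forms (TTTCCCGC or TTTGGCGC, both strands) lay in 12.5% of the entries, against 3.16% and 1.56%, among them those of Cenpb, Dsn1 and Smc1a. These shares were not tested, and the median G+C content was 59% in the entries of the list, 61.5% in those of other genes above background and 52.7% in all.

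By role, a CHR form lay in the promoter of 4 of 6 checkpoint genes, 3 of 4 condensin genes and 2 of 3 genes of the Polo and cytokinesis group, against 2 of 5 outer kinetochore genes, 2 of 8 genes of the centromere network, 1 of 8 APC/C core genes (Anapc7) and 0 of 3 cohesin genes. It lay in 2 of 4 genes of the passenger and Aurora group, 1 of 3 of centromere chromatin, and 1 of 2 each in the corona, the APC/C activators and the separase and securin pair. Over the whole entry, a CHR form lay in 13.5% of the entries of other genes above background and 19.2% of all entries. Counts such as 1 of 8, 2 of 8 or 0 of 3 thus say nothing particular about a group. The groups are small and were not tested against each other. A match is a description and no proof of binding, and a window without one says only that these letters are not in it. Aurkc, the gene not above background, had CCAAT but no CHR form. In Cdca8 the motifs share 1 base, and in the stretches printed here they share 0.

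**Figure D4:**
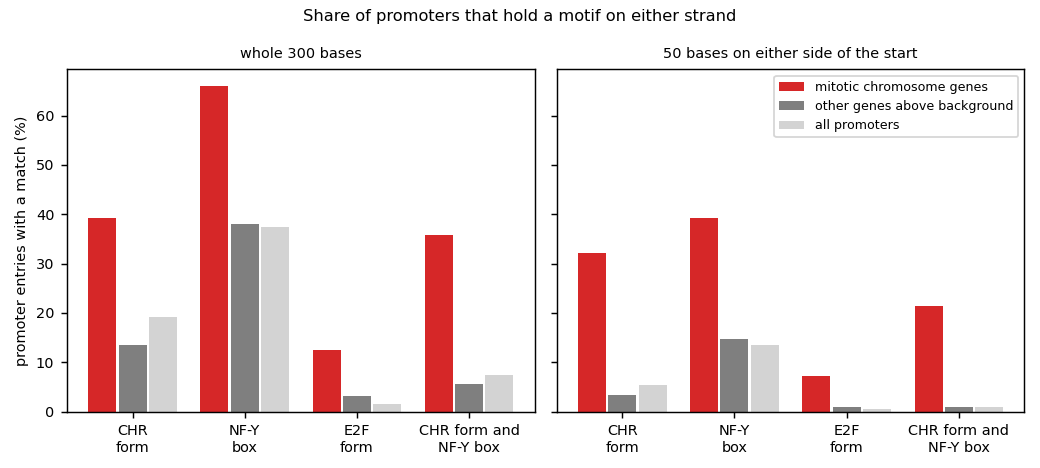
Bars give the percentage of promoter entries with a match on either strand, for the mitotic chromosome genes (red, 56 entries), other genes above background (dark grey) and all 32851 entries (light grey), over the whole entry (left) and within 50 bases of the start (right); the NF-Y box is CCAAT. CHR form and NF-Y box occur together in 35.7% of the entries of the list over the whole entry, against 5.52% and 7.52%. In the narrow window, chosen after values were seen, they do so in 21.4%, against 0.866% and 0.886%.

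Most of the 17 genes with a CHR form within 50 bases of the start have it after the start, as in Aurka and Plk1. The 80 bases before the start are shown for the 5 genes in which a CHR form lies wholly before the start and within 50 bases of it, because there the arrangement can be read directly. They run 5′ to 3′ on the gene's strand, end at the base before the start, and have CHR forms (TTTGAA, or TTCAAA on the other strand) and CCAAT boxes (or ATTGG) in capitals.
Cdc20 (chr4:118437344-118437423, minus strand): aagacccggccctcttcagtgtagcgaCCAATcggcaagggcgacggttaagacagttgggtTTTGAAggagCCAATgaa
Espl1 (chr15:102296213-102296292, plus strand): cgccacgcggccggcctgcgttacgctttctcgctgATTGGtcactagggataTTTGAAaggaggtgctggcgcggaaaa
Cenpn (chr8:116921660-116921739, plus strand): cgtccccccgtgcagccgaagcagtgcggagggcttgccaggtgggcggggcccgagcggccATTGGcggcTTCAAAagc
Bub3 (chr7:131560290-131560369, plus strand): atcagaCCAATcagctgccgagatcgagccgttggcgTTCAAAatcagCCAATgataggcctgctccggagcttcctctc
Ncapg (chr5:45669845-45669924, plus strand): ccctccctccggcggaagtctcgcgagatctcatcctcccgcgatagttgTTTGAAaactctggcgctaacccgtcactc
Cdc20 has CCAAT on both sides of its CHR form, which starts 18 bases before the start of transcription, and Bub3 has the same arrangement with the CHR form on the other strand. Bub3 has a second promoter entry, with a start farther downstream, in which the same motifs lie more than 50 bases before the start. Espl1 and Cenpn each have 1 reversed CCAAT box upstream of the CHR form, and Ncapg has a CHR form alone in this stretch. All 5 genes were above background, with mean signals of 6218 ± 152, 982 ± 185, 979.5 ± 52.7, 3825 ± 159 and 1109.8 ± 108 in the order printed.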

How the data were processed

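Total RNA of F9 cells was extracted with Trizol and biotin-labelled for Mouse Genome 430 2.0 arrays, per the labels' protocols. The deposited values are linear signal intensities that the authors obtained with GCOS 1.4, per the submitters' processing notes; of the signal algorithm and detection calls nothing is stated there. The values show that each array had been scaled to a common mean (2% trimmed at each end), which hides a change in total RNA per cell. They were not normalized further. Gene symbols came from the 2016 platform annotation: 34945 probe sets had 1 symbol, and 932 with several named no gene. Log2 signal minus log2 threshold was fitted with limma 3.58.1 in R 4.3.3 (intercept, eBayes, one-sided). The procedure was tested on simulated data, which did not cover the choice of a gene's probe set, and no result above rests on that test. The number of arrays limits the precision. The list, role groups, further gene lists, motifs, tests and naming rule were chosen with earlier results of these data known. By that rule, values on every array are given for the first 2 measured genes of each role group and for genes not called, with calls that changed or with probe sets on both sides of the call. Values on every array are also printed for further genes, chosen after their values were seen. The narrow promoter window, the printed stretches and the promoters of other genes above background were also chosen then. Comparing paralogous proteins was planned and not done, since no protein table was at hand. Alternatives changed the threshold, the background genes, the scaling, low values, the probe set of a gene and the arrays used.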

Additional observations from a re-analysis of the deposited data

How the results depend on the processing

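Across 14 alternatives the number of genes above background stayed within 52 to 59, and no call of the 59 genes changed outside the choices of probe set and of background. Of 825 values for single genes, 812 kept their direction and call. The number of probe sets called was 105 to 106 with an array left out and 117 with bacterial controls. The median distance from the threshold, 4.66 log2 units, became 4.99 at the 90th percentile, 4.27 at the 99th, 5.63 with bacterial controls and 4.23 with log2(signal + 16). It was 4.11 with the probe set chosen by suffix, 4.32 without _s_at and _x_at probe sets, 3.64 with the median over probe sets, and 4.65 to 4.73 with an array left out. The values of log2(signal + 16) are compressed by construction. Direction turned by suffix for Cenpa (-1.69), Mad1l1 (-3.88), Cdc16 (-0.35) and Cdc23 (-1.19), and by the median for Cenpa (-0.76), Mad1l1 (-0.89), Cenpk (-0.38) and Bub3 (-0.18), where a probe set not above background replaced the representative or entered the median. Aurkc turned to 0.30 at the 90th percentile and 0.94 with bacterial controls, which lower the threshold. The alternative with bitter taste receptors alone among the taste receptors was added after the data were seen and left 58 genes called. No paired analysis was possible because all samples form 1 group.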

Other observations

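By the accession that each probe set was annotated with, 18 of 20 probe sets of these genes with a RefSeq mRNA (NM) accession were above background (90%, against 48.5% of all such probe sets). With another accession it was 75 of 99 (75.8%, against 43.8%), and with none 14 of 17 (82.4%, against 20.3%). Together the comparison groups also hold probe sets without a gene symbol, whereas all those of the list have a symbol. The probe sets compared are thus not alike, and the part of this in each gap was not tested. The 2 probe sets with an NM accession that were not called are those of Aurkc and the last of Pttg1.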
